A study of Mus musculus with 2 samples.

Results

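Oxidative phosphorylation subunits are the proteins of the respiratory chain and of ATP synthase in the inner mitochondrial membrane. The genes were taken by symbol alone: a probe set was included when its single gene symbol began with Nduf followed by a, b, c, s or v and a digit, with Uqcr, with Atp5 or with Cox and a digit between 4 and 8, or was Sdha, Sdhb, Sdhc, Sdhd or Cyc1. This gave 148 probe sets for 79 genes, out of 20380 probe sets with 1 symbol for 12393 genes. By complex they divide into 33 genes of complex I, 4 of complex II, 9 of complex III, 16 of complex IV and 17 of complex V. Subunits encoded in mitochondrial DNA do not fall under these symbols and were not analysed here.

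Total RNA from murine bone, labelled as c57Bl/6 femur, was hybridised to 2 arrays: 1 of an allograft and 1 of an autograft. Allografts come from another individual of the recipient's species, whereas autografts come from the recipient itself. The labels used here give no donor, time after grafting, number of animals or treatment. Each probe set, a group of short oligonucleotides read together, has 1 deposited intensity per array on a linear scale. The comparison asks which transcripts differed between the grafts. With 1 array of each, no difference has a replicate check and no test was possible. A log2 ratio is allograft over autograft throughout, and values below a floor of 175.2, the median of all non-control intensities, were set to that floor first. A gene is represented by its brightest probe set. An intensity reflects both the number of cells of a type and the RNA in each cell, which cannot be told apart in whole tissue.

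Complex I takes electrons from NADH and complex II takes them from succinate, and both pass them to ubiquinone. Complex III hands them on to cytochrome c, and complex IV passes them to oxygen. Complexes I, III and IV pump protons, and complex V, the ATP synthase, uses the returning protons to make ATP. In bone, marrow cells and osteoclasts hold many mitochondria, and skeletal muscle attached to a femur is also rich in them and has its own isoforms of some complex IV subunits.

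Most members read well above the floor on both arrays. Of the 79 genes, 77 were above the floor on both, Cox4i2 was above it in the autograft alone, and Cox7c was below it on both by the probe sets listed for it (66.2 in the allograft and 80.2 in the autograft by the brighter one). Among the 78 genes above the floor on at least 1 array, intensities ran from 136.5 to 9443 in the allograft, with a median of 5730, and from 194.7 to 7939 in the autograft, with a median of 5218. The intensities summed over all 79 genes came to 436983 in the allograft and 384246 in the autograft.

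**Figure D1:**
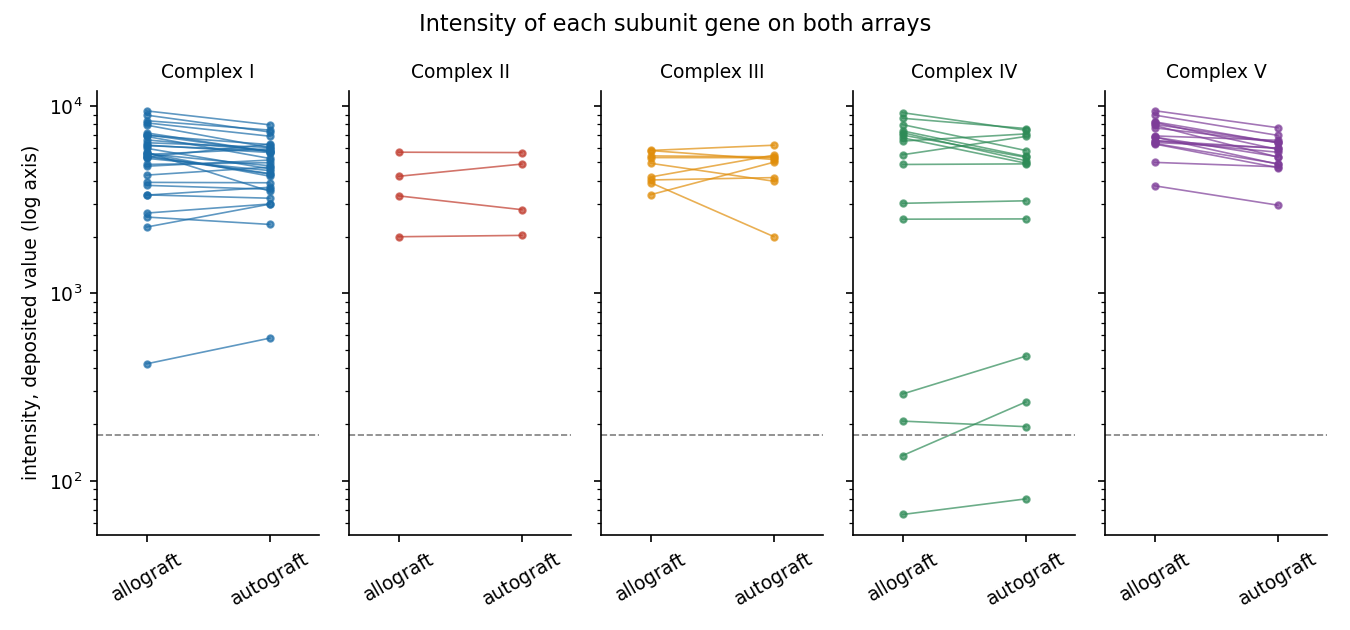
Intensity of the probe set used for each gene, on a log axis, in the allograft (left) and the autograft (right), with 1 line per gene and 1 panel per complex; the dashed line is the floor of 175.2. All 17 lines of complex V slope down from allograft to autograft, whereas those of complexes II and III run both ways.

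As deposited, no member differed 2-fold between the grafts by the probe set that stands for it. Among the 77 that passed the floor on both arrays, 0 reached a 2-fold higher and 0 a 2-fold lower intensity in the allograft, against 0.859% and 0.62% of the 7100 named genes that passed it. At 1.5-fold, Uqcrh and Ndufa3 were higher and Cox8c was lower, which is 2 and 1 of 77, while 4.07% and 6.23% of all named genes were. Cox4i2, above the floor in the autograft alone, was at least 1.51-fold lower in the allograft. Most members lay slightly above 0: 56 of 78 had a ratio above 0 and 22 below it, with a median of 0.17 and a range of -0.67 to 0.96. Of the 7100 named genes, 41.5% lay above 0 and 58.5% below it, and the median of all named genes above the floor on at least 1 array was -0.076.

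Bright genes of other kinds also lay mostly above 0. When the 7100 genes were divided into 20 bins of equal size by mean log2 intensity, 55 of the 77 members fell in the brightest bin and 13 in the next, and the members made up 15.5% of the brightest bin. The 300 other genes of that bin had a median log2 ratio of 0.28, 81.3% of them lay above 0 and 18.7% below, and the SD of their ratios was 0.27. At 2-fold, 0 of these 300 genes were higher and 0 lower in the allograft, which is the same share as among the members. At 1.5-fold, 7.67% of the 300 were higher in the allograft and 0 lower. Set against the median of the other genes in its own bin, a member stood at -0.031 in the median, and 35 of 77 were above their bin's median. The ratio of the members as a group was therefore close to that of other genes of like intensity, and the median over all members changed sign when the arrays were quantile normalized (-0.061) or the trend with intensity was removed by lowess (-0.021).

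**Figure D2:**
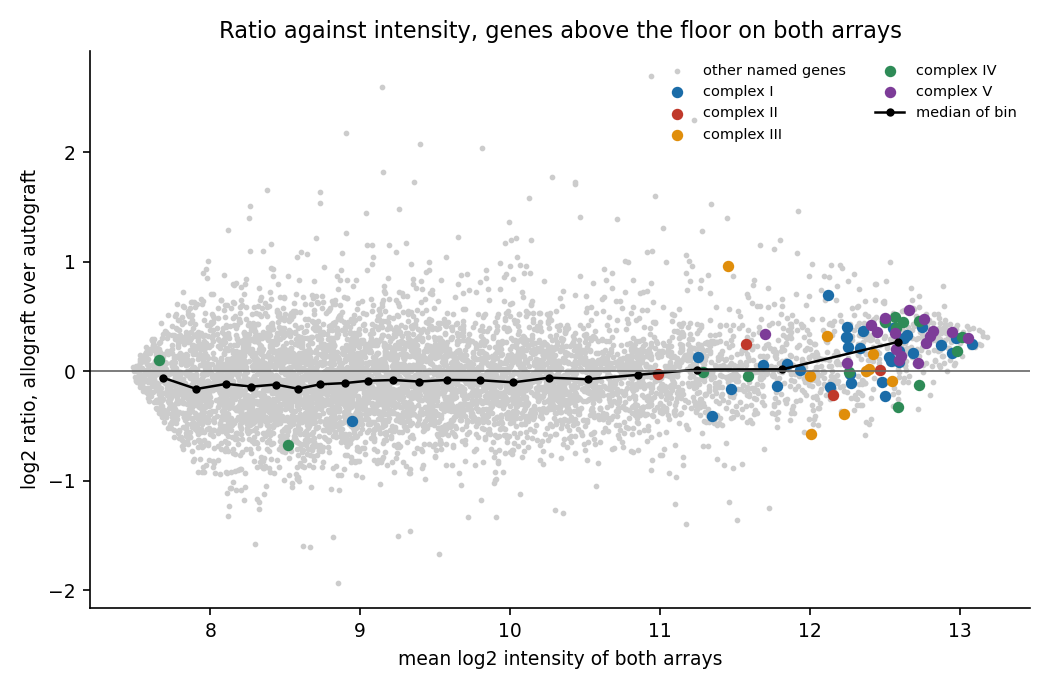
Log2 ratio of allograft over autograft against the mean log2 intensity of both arrays for the 7100 named genes above the floor on both arrays, with other genes in grey, members coloured by complex and the median of each of 20 intensity bins as the black line. The line turns upward at the bright end, where 55 of the 77 members lie.

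The complexes are compared by their medians. The median log2 ratio was 0.34 for complex V, 0.16 for complex I, 0.099 for complex IV, 0.0011 for complex III and -0.0087 for complex II. All 17 genes of complex V lay above 0, as did 24 of 33 in complex I, 8 of 15 in complex IV, 5 of 9 in complex III and 2 of 4 in complex II. Against the bin medians complex V was again highest and complex III lowest, at 0.071 for complex V (11 of 17 genes above their bin), 0.0065 for complex IV (7 of 14), -0.060 for complex I (13 of 33), -0.11 for complex II (2 of 4) and -0.26 for complex III (2 of 9). The SD across genes was 0.15 in complex V and 0.44 in complex III, where Uqcrh stood apart at 0.96. The brightest bin is wide, with its other genes between 4160 and 10336 in the allograft. Median allograft intensities were 6832 for complex V and 4948 for complex III, so the bin medians may not fully level these complexes for intensity. Genes read on the same pair of arrays are not replicates, so the difference between complexes V and III was not tested.

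**Figure D3:**
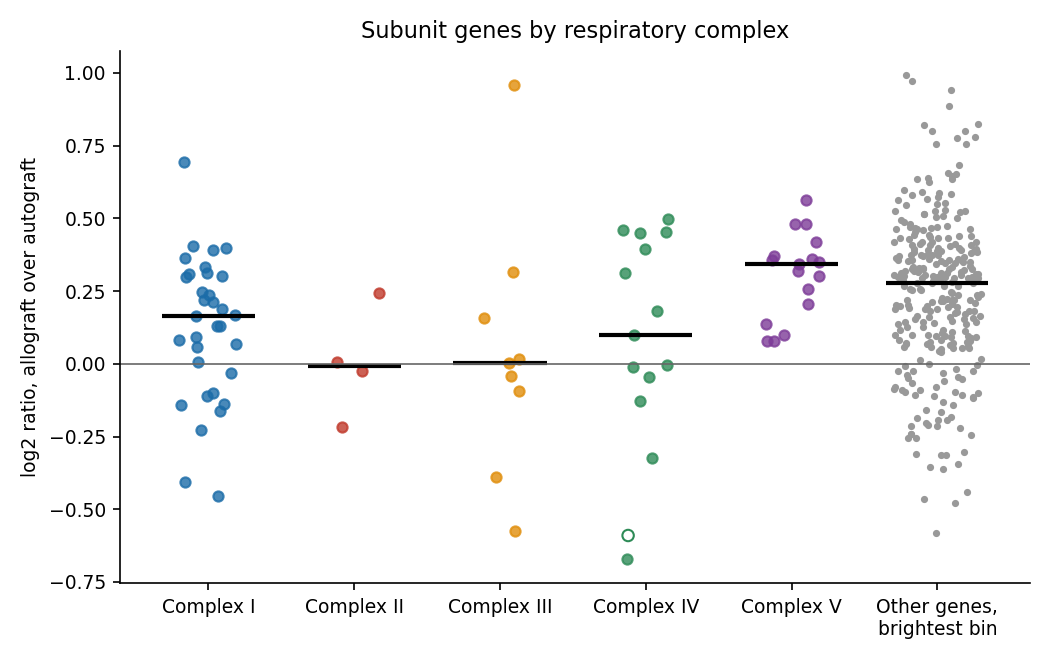
Log2 ratio of allograft over autograft for each gene by complex, with the 300 other genes of the brightest bin on the right; black bars are medians, filled points are above the floor on both arrays, and the open point is Cox4i2, a bound. Complex V is narrow, with a median of 0.34, and complex III spans -0.58 to 0.96.

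Complex V genes had the higher intensity in the allograft throughout, though not under every scaling: 17 of 17 ratios were above 0 as deposited, 10 of 17 after quantile normalization and 12 of 17 with the intensity trend removed. The catalytic head and its stalk gave 9 ratios from 0.14 to 0.56, with a median of 0.35, and 8 and 6 of the 9 stayed above 0 with the trend removed and after quantile normalization. Atp5j, which encodes the coupling factor of the stalk, read 7882 in the allograft and 5339 in the autograft (log2 ratio 0.56). Atp5e, the epsilon subunit, read 6831 against 4893 (0.48). For the alpha and beta subunits, which form the catalytic ring, the intensities were 6275 against 4690 for Atp5a1 (0.42) and 7981 against 6403 for Atp5b (0.32). In the central stalk Atp5c1, the gamma subunit, read 8947 against 6973 (0.36). Atp5d, the delta subunit, read 6542 against 5954 (0.14) by the probe set used, but its other probe set gave -0.32 and quantile normalization -0.14, so it has no direction here.

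In the membrane part of ATP synthase 8 ratios ran from 0.078 to 0.48, with a median of 0.27, and 4 of 8 stayed above 0 after either step. Atp5j2, a small subunit of the membrane part, was at the upper end with 8180 in the allograft against 5861 in the autograft (0.48). The 3 genes Atp5g1, Atp5g2 and Atp5g3 encode the same mature protein, the subunit of the rotating ring, with different import sequences. Among them, Atp5g3 stood at 8239 against 6371 (0.37), Atp5g1 at 6928 against 6565 (0.078) and Atp5g2 at 5004 against 4741 (0.078). Atp5l, the g subunit, was also at the lower end with 6389 against 5967 (0.099). Counting every complex V probe set that passed the floor on both arrays, 23 of 25 had a ratio above 0, and the other 2 belonged to Atp5d (3255 against 4066, -0.32) and to Atp5pb (5293 against 5584, -0.077). The brighter probe set of Atp5pb, the b subunit of the peripheral stalk, read 9443 in the allograft and 7664 in the autograft (0.30).

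Complex I spread over both sides of 0, and differences between its arms were not tested. The proximal membrane arm, which joins the peripheral arm, had 8 of 8 ratios above 0 and a median of 0.27, and the distal membrane arm 8 of 10 and 0.13. In the N module, which oxidises NADH, 4 of 7 were above 0 (median 0.21). The Q module, which reduces ubiquinone, had 3 of 7 above 0 (median -0.030), and 0 of its 7 genes were above the median of their intensity bin. Removing the intensity trend or quantile normalizing left the median of complex I as a whole just below 0 (-0.033 and -0.080). The same steps left 6 of 8 proximal arm genes above 0, with medians of 0.13 and 0.11. The N module then had 4 and 3 of 7 above 0, with medians of 0.041 and -0.023. The distal arm had 3 of 10 above 0 (medians of -0.080 and -0.13) and the Q module 0 of 7 (-0.19 and -0.25), whereas centring put the median of the Q module just above 0 (0.022 and 0.034).

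Ndufa3, a small membrane subunit of complex I, had the highest ratio of the complex, 0.69, from 5673 in the allograft and 3509 in the autograft. Its second probe set gave 5054 against 2615 (0.95), so both of its probe sets were past 1.5-fold. Ndufb7 read 5599 against 4223 (0.41, with a second probe set at -0.017) and Ndufa12 read 7912 against 6000 (0.40), both accessory subunits. At the low end, Ndufb1, a membrane subunit, read 421 in the allograft and 578 in the autograft (-0.46). Ndufs1, the largest of the iron-sulfur subunits, read 2261 against 2997 (-0.41), and Ndufa6, an accessory subunit of the Q module, 5348 against 6256 (-0.23).

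The conserved catalytic core of complex I, grouped after the values were seen, was split. Of its 6 measured members, 3 were above 0 and 3 below, with a median of -0.047, against 21 of 27 above 0 and a median of 0.17 for the other subunits. Ndufv1, which binds NADH and flavin, read 4280 in the allograft and 4722 in the autograft (-0.14), and its 3 probe sets lay between -0.21 and -0.14. Its partner Ndufv2, an iron-sulfur protein, read 7188 against 5710 (0.33), with 3 probe sets between 0.27 and 0.34. These neighbours at the entry point for electrons thus stood on opposite sides of 0 in every probe set. Ndufs3 was level at 3915 against 3896 (0.0071), and Ndufs7 read 5518 against 5916 (-0.10) by its brighter probe set. Ndufa4, named for complex I and later found in complex IV, read 6594 against 5786 (0.19).

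Complex II, which is also the succinate dehydrogenase of the citrate cycle, differed little. Sdhb, the iron-sulfur subunit, read 5671 in the allograft and 5645 in the autograft (0.0068), and Sdhc, a membrane anchor, 2008 against 2041 (-0.024), with a second probe set at -0.014. Sdha, the flavoprotein, gave 4217 against 4902 (-0.22) by the probe set used and 4088 against 3686 (0.15) by the other. Sdhd, the other anchor, gave 3317 against 2800 (0.24) and 642 against 858 (-0.42). For Sdha and Sdhd the probe sets contradict each other, so neither has a direction here.

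Complex III had the widest spread of the complexes, and the upper end of that spread rests on Uqcrh, read by 1 probe set. Uqcrh, the hinge protein that helps cytochrome c1 meet cytochrome c, read 3904 in the allograft and 2010.1 in the autograft, a log2 ratio of 0.96 (1.94-fold) by its only probe set. Uqcrfs1, the Rieske iron-sulfur protein, read 4948 against 3972 (0.32). Below 0 were both core proteins of the matrix side: Uqcrc2 read 3364 in the allograft and 5016 in the autograft (-0.58, with a second probe set at -0.26), and Uqcrc1 read 4181 against 5470 (-0.39). Cyc1, cytochrome c1, read 5795 against 6179 (-0.093), and Uqcr11 was level at 5418 against 5359 (0.016). Uqcr10, a small subunit, read 5786 against 5185 (0.16) by its brightest probe set, while its others gave 1705 against 2741 (-0.69) and 1327 against 1712 (-0.37). Of the 3 genes of this complex with several probe sets above the floor, Uqcrc2 was below 0 by both and Uqcr10 lay on both sides. The third, Uqcrb, was level by the probe set used (0.0011) and stood at 0.77 by the other. The split within the complex was as wide under the other scalings: Uqcrh stood at 0.91, Uqcrc1 at -0.54 and Uqcrc2 at -0.70 with the trend removed, and at 0.89, -0.60 and -0.75 after quantile normalization.

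Nuclear respiratory factor 1 and the ETS factor GABP are known regulators of many respiratory genes, so their sites were looked up in the 250 bases before each gene's start. RefSeq promoters of mouse build GRCm38.p6 were found for 64 of the 79 members by gene identifier, 5 of them with more than 1 start. The letters searched on both strands were GCGCA, any base, then GCGC for nuclear respiratory factor 1, and CCGGAAG for ETS factors. The first was found for 10 of 64 members (15.6%), against 7.63% of the 9882 array genes with a promoter and 4.23% of all 27025 genes in the promoter table. The second was found for 12 of 64 (18.8%), against 12.9% and 7.83%, and 3 members (Atp5h, Cox6a1 and Sdhd) hold both. Shown are the 250 bases before the start of Cox6a1 and Cox8b, a widely expressed and a muscle subunit of complex IV, of Sdha, with the most matches to the first motif, and of Uqcrh, with the highest ratio, with matches in capitals. They lie on the minus strand of GRCm38.p6 at chr5:115348959-115349208, chr7:140900447-140900696, chr13:74350241-74350490 and chr4:116075071-116075320, in that order, and are written 5′ to 3′.
Cox6a1: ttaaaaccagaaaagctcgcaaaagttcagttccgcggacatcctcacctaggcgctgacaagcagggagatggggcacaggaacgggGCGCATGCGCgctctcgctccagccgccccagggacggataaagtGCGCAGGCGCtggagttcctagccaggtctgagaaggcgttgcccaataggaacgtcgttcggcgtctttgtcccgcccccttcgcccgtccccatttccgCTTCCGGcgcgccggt
Cox8b: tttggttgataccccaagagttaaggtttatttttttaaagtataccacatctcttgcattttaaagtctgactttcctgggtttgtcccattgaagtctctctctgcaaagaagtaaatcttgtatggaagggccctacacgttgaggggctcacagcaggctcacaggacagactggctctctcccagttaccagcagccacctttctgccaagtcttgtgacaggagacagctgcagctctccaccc
Sdha: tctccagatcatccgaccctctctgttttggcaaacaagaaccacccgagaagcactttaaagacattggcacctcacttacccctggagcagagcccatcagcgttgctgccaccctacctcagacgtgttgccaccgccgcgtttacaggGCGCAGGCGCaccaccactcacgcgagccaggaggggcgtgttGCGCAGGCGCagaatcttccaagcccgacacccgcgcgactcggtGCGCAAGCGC
Uqcrh: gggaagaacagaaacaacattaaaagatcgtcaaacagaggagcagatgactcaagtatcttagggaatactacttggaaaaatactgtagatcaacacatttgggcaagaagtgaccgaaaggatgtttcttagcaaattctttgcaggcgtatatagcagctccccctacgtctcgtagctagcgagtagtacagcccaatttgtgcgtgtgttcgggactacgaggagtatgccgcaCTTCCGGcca
Cox6a1 holds 2 matches to the first motif and 1 to the second, Sdha holds 3 and 0, Uqcrh 0 and 1, and Cox8b 0 of either. The 10 members with the first motif had a median log2 ratio of 0.22, with 8 of 10 above 0, against 0.16 and 40 of 53 for those without it. After quantile normalization 4 of these 10 were above 0 (median -0.036), against 22 of 53 without the motif (-0.080), and with the trend removed 5 of 10 were (0.0086), against 23 of 53 (-0.027). By the probe set used, the 12 members with the second motif were all above 0, between 0.0071 and 0.96 with a median of 0.33. Those without it had 36 of 51 above 0 and a median of 0.16. Sdhd and Ndufb7 are among the 12, and a second probe set of each lay below 0 (-0.42 and -0.017). After quantile normalization 7 of these 12 were above 0 (median 0.15), against 19 of 51 without the motif (-0.080). With the trend removed 8 of the 12 were above 0 (0.18), against 20 of 51 (-0.027). A match describes letters in the window and not a bound site, and a missing match says only that the letters are not there. These differences between members were not tested.

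The complex IV isoforms are given in pairs. Cox6a2, Cox7a1 and Cox8b are the heart and muscle forms of subunits whose widely expressed forms are Cox6a1, Cox7a2 and Cox8a. Cox6a2 read 7210 in the allograft and 5104 in the autograft (0.50), close to Cox6a1 at 6999 against 5327 (0.39, with a second probe set at 0.63). Cox7a1 was level at 2491 against 2499 (-0.0048), while Cox7a2 stood at 8604 against 7586 (0.18, second probe set 0.39). Cox8b was lower in the allograft, at 5497 against 6882 (-0.32), and Cox8a was level at 4878 against 4913 (-0.0105, second probe set -0.071). The 3 muscle forms thus spanned -0.32 to 0.50, with 1 of 3 above 0. As deposited, the ratio of each differed from that of its widely expressed form by less than the SD of 0.33 between probe sets of one gene. With the trend removed or after quantile normalization Cox6a2 stayed above 0 (0.29 and 0.22) and Cox7a2 changed side (-0.089 and -0.12). Cox8b then went further below 0 (-0.53 and -0.60) than Cox8a (-0.17 and -0.23). These 2 genes then differed by more than 0.33, but that SD was computed on the deposited values and not after these steps.

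**Figure D4:**
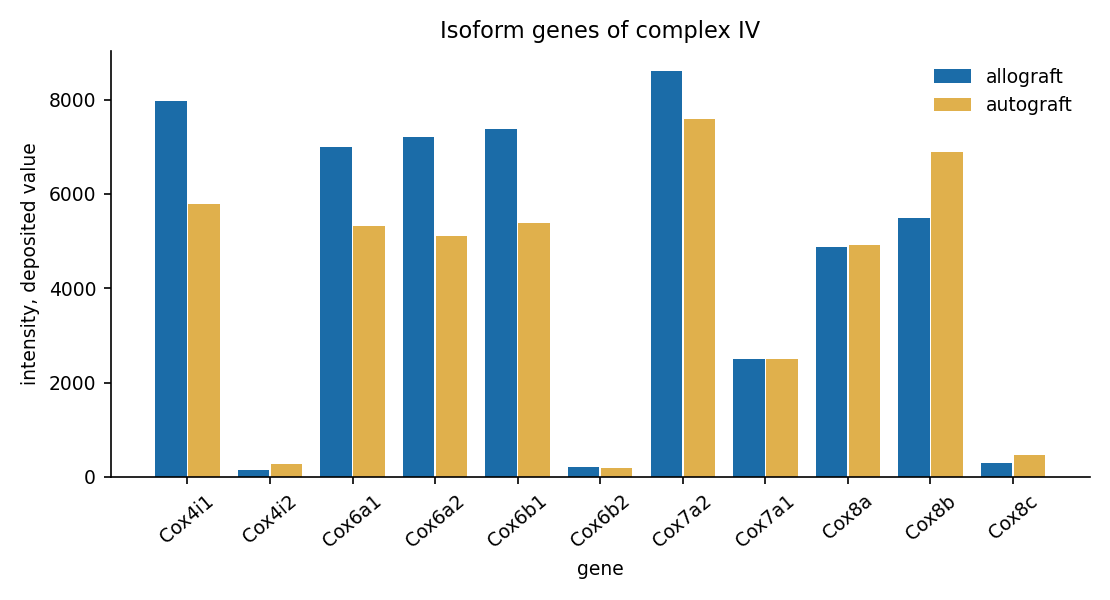
Deposited intensity of the complex IV isoform genes in the allograft (left bar of each pair) and the autograft (right bar), on a linear axis from 0; heights of different genes are read by different oligonucleotides and are not comparable. Cox6a1 and Cox6a2 have the taller bar in the allograft, Cox8b in the autograft, and Cox7a1 and Cox8a are level.

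Skeletal muscle markers were read on the same arrays. Of 14 skeletal muscle genes, 10 had a ratio above 0 and 2 passed 2-fold in that direction, with a median of 0.36 and summed intensities of 67052 in the allograft and 51838 in the autograft. With the trend removed 11 of 14 were above 0 (median 0.19), and after quantile normalization also 11 of 14 (0.13). The highest were Atp2a1, the calcium pump of fast fibres (1.71, 2501 against 767), and Acta1, the skeletal actin (1.08, 5615 against 2658), and the lowest were Myh2 (-0.24) and Tnnt3 (-0.22). The ratios of Cox7a1 and Cox6a2 lay within the range of these 14 genes, and that of Cox8b (-0.32) below it. Ckmt2, the mitochondrial creatine kinase of striated muscle, read 4524 in the allograft and 6239 in the autograft (-0.46), on the same side as Cox8b, and Slc25a4, the heart and muscle nucleotide carrier, read 8304 against 6072 (0.45), on the same side as Cox6a2. The part of muscle content in these values was not tested.

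Several other isoforms of complex IV lay near the floor. Cox4i1, the general form of subunit 4, read 7959 in the allograft and 5789 in the autograft (0.46), while Cox4i2, the form induced by low oxygen, read 137 against 264 and was above the floor in the autograft alone. Cox6b1 read 7367 against 5383 (0.45), and Cox6b2, a testis form, was just above the floor at 209 against 195 (0.099). Cox8c, also a testis form, read 291 against 463 (-0.67), the lowest ratio among members above the floor on both arrays. With the floor at the 25th percentile Cox4i2 stood lower, at -0.95. Cox7a2l, which takes part in assembling supercomplexes, read 3027 against 3122 (-0.045), with further probe sets at -0.26 and -0.34. Among subunits with no listed isoform, Cox6c (0.45) and Cox5a (0.31) were above 0, while Cox5b read 6502 against 7101 (-0.13) by its brightest probe set and had others from -0.25 to 0.47.

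Without replicates, the only spread that can be read here is that between probe sets of one gene. These are read on the same 2 arrays, so their spread holds no variation between arrays or animals and is not an error of the graft ratio. In 38 member genes at least 2 probe sets were above the floor on both arrays, and the ratios of the brightest and the next differed with an SD of 0.33. For 12 of the 38 genes (31.6%) the probe sets lay on both sides of 0, against 46.6% of 1887 other genes with several probe sets. Those genes were Atp5d, Atp5pb, Cox5b, Ndufa5, Ndufa7, Ndufb7, Ndufs4, Ndufs7, Ndufs8, Sdha, Sdhd and Uqcr10. For Ndufa5 the probe sets read 4883 in the allograft against 4986 in the autograft (-0.030) and 4025 against 3771 (0.094). Ndufa7 read 6189 against 5650 (0.13) and had 4 further probe sets from -0.0049 to 0.30, with 1 of 5 below 0. Ndufs4, an accessory subunit of the N module, read 2685 against 3003 (-0.16), with others at 0.29 and -0.11. The median range within a gene was 0.24, and 7 genes had a range above 0.5.

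The widest ranges show how far apart probe sets of one gene can lie. The 3 probe sets of Atp5k, the e subunit of ATP synthase, read 6533 in the allograft and 5667 in the autograft (0.20), 4239 against 2840 (0.58), and 2507 against 846 (1.57). That at 1.57 is the only 1 of the 3 without a mark for shared oligonucleotides in its name. The mark counted here is a name ending in _a_at, _s_at or _x_at. Whether the oligonucleotides are shared within a gene or between genes was not examined. Ndufs8, an iron-sulfur subunit of the Q module, had 6 probe sets, 3 of them above 0 (0.25, 0.32 and 0.49) and 3 below (-0.084, -0.36 and -0.52). Its brightest read 9422 in the allograft and 7939 in the autograft. The probe sets above 0 read at least 7333 in the allograft, and those below 0 at most 2087. All 3 above 0 and that at -0.52 carry the mark for shared oligonucleotides, while those at -0.084 and -0.36 do not. Uqcrb, a ubiquinone-binding subunit of complex III, stood at 0.0011 by one probe set (5306 against 5302) and at 0.77 by another (5334 against 3137). A difference of 0.3 or less between members is therefore within what probe sets of one gene show.

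**Figure D5:**
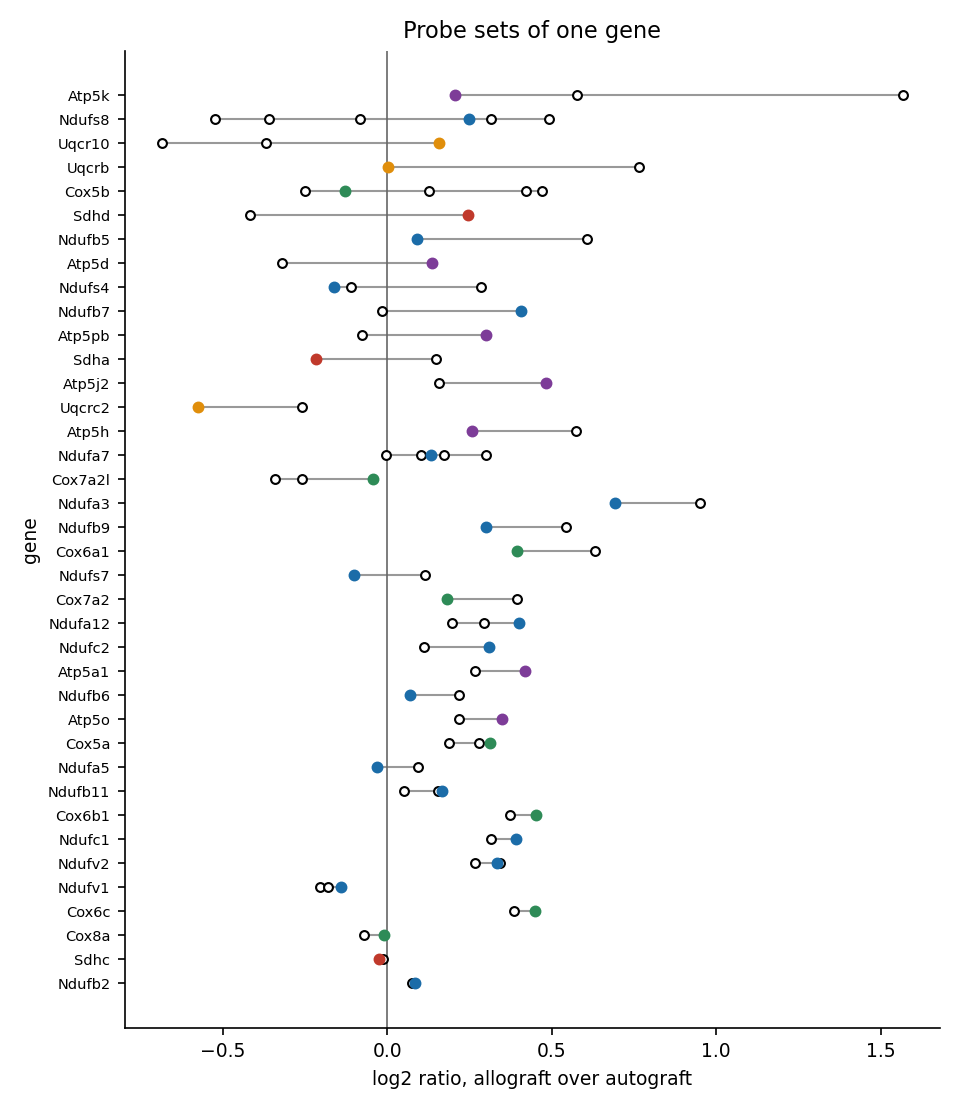
Log2 ratio of allograft over autograft for every probe set that passed the floor on both arrays, in the 38 member genes with at least 2 of them; filled points are the probe sets used for the gene, coloured by complex, and open points are the others. Atp5k has the widest range, from 0.20 to 1.57, and Ndufb2, with a range of 0.0084, the narrowest.

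Genes that assemble, feed or link the complexes had ratios on both sides of 0. Of 18 assembly factors above the floor, 7 were above 0, with a median of -0.14, between Cox17, a copper chaperone (0.61, 4292 in the allograft and 2803 in the autograft), and Cox15, an enzyme of heme a synthesis (-0.69, 323 against 520). Next to these ends lay Sdhaf2, an assembly factor of complex II (-0.59), and Ttc19, of complex III (0.30). The median of the bins these genes fall in was -0.12, so their ratios were again close to that of other genes of like intensity. Citrate cycle genes had 10 of 15 ratios above 0 and a median of 0.11, between Sucla2 (0.29) or Mdh2 (0.28) and Ogdh, a subunit of oxoglutarate dehydrogenase (-0.55, 1331 against 1943) or Dlst, another subunit of it (-0.18), though quantile normalization left 4 of 15 above 0 (-0.046). Electron carriers and shuttles had 6 of 10 above 0 and a median of 0.048, between Slc25a4 or Gpd2 (0.33) and Ckmt2 or Etfdh (-0.18), and Cycs, cytochrome c itself, was level at 7711 against 7719 (-0.0014).

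Regulators of mitochondrial gene expression likewise had no common direction. Of 10 above the floor, 4 were above 0, with a median of -0.076. Polg, the mitochondrial DNA polymerase (-0.60, 255 in the allograft and 386 in the autograft), and Polrmt, the mitochondrial RNA polymerase (-0.50, 499 against 704), were lowest. Tfb1m (0.36, 306 against 239) and Tfam, which packages mitochondrial DNA (0.15, 468 against 423), were highest. Nrf1, whose motif is described above, read 261 against 360 (-0.47), Gabpa read 368 against 348 (0.078), and Ppargc1a, a coactivator of mitochondrial biogenesis, was below the floor on both arrays.

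Genes of blood, bone, cartilage and fat cells were read on the same arrays. Counts and medians cover the genes above the floor on at least 1 array. Sums cover every listed gene with a probe set, which adds genes below the floor for osteoclasts (6 genes summed), cartilage (10) and adipocytes (7). Of 10 listed erythroid genes, the 9 with a probe set were all above 0 (median 0.89), with summed intensities of 24362 in the allograft and 13238 in the autograft, and all 10 neutrophil genes were (median 0.36, sums of 51359 and 39212). With the trend removed 9 of 10 neutrophil genes were above 0 (median 0.25), and after quantile normalization 9 of 10 (0.24). The erythroid genes all stayed above 0 under both steps (medians 0.95 and 0.93). Osteoclast genes were mixed, with 3 of 5 above 0, a median of 0.099, and sums of 22982 and 18884, but 2 of 5 were above 0 with the trend removed (median -0.16) and after quantile normalization (-0.21). The 8 osteoblast and bone genes were all above the floor on both arrays and had 4 of 8 ratios above 0, with a median of -0.28. With the trend removed and after quantile normalization 3 of 8 were above 0 (medians -0.37 and -0.40). The deposited sums of the bone genes, 29162 and 22918, run the other way. Among them Col1a1 read 4994 in the allograft against 771 in the autograft and Sparc 6445 against 2336. Cartilage genes had 1 of 8 above 0 (median -0.66, sums of 16937 and 20713), as they did under both steps (medians -0.61 and -0.63). Among adipocyte genes 4 of 4 were above 0 (median 0.85, sums of 24608 and 15666). With the trend removed 3 of 4 were above 0 (median 0.70), and after quantile normalization also 3 of 4 (0.66). Ucp1, Cidea and Elovl3, which mark brown fat, were below the floor on both arrays, at 91.8 or less in the allograft and 133 or less in the autograft. The part of these cell types in the subunit ratios was not tested.

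A further 7 probe sets name a member pattern together with another gene and were kept out of the counts. Those for Ndufb4 and its copies read 5942 in the allograft against 4365 in the autograft (0.45) and 5191 against 4507 (0.20), that for Ndufs6 and its copy 4504 against 3631 (0.31), and that for Ndufa11 and its copy 5303 against 4949 (0.0996). The probe set shared by Ndufs5 and a pseudogene stood at 0.24, close to the 0.31 of the probe set listed for Ndufs5 alone. The remaining 2 were below the floor on at least 1 array.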

How the data were processed

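The authors deposited 1 linear intensity for each probe set on each array. Their software, background correction and scaling are not stated in the labels or headers. The 2% trimmed means over 22690 probe sets were 500.2 (allograft) and 500.1 (autograft), so the values were used as deposited. Samples were grouped by title. Control probe sets (64) were left out. Genes come from the platform annotation, and all 79 members matched RefSeq (GRCm38.p6) by Entrez identifier. Values under 175.2 were set to it before log2, and the probe set with the highest mean log2 value stands for a gene.

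The members and lists were chosen with earlier results of these data known. Genes named with values are the 3 highest and 3 lowest of each complex, those past 1.5-fold or above the floor on 1 array, isoform groups and genes with probe sets on both sides of 0, plus 2 from each end of the other lists; further members were named after their values were seen. Atp5md, Atp5mpl and Atp5pb were placed in complex V from their symbols. Intensity bins hold 355 genes. The steps were tested on simulated data. No test between grafts was made, since each has 1 array, and precision is limited by that number. Tools were pandas 2.3.3 with numpy 2.4.6, scipy 1.17.1 for trimmed means, statsmodels 0.14.6 for lowess and matplotlib 3.10.9 for figures, under Python 3.11.15. Alternatives were other scalings, floors, probe sets and thresholds.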

Additional observations from a re-analysis of the deposited data

Results flagged for a closer look

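A probe set of Atp5k that does not stand for its gene, because it is the dimmest of 3, was more than 2-fold higher in the allograft, at a log2 ratio of 1.57 (2507 in the allograft, 846 in the autograft). Among the 134 member probe sets that passed the floor on both arrays it was the only 1 past 2-fold in either direction. Of the 7100 named genes above the floor on both arrays, 0.859% were at least 2-fold higher and 0.62% lower, by their brightest probe sets. The other probe sets of Atp5k stood at 0.20 and 0.58. Those others carry a mark for shared oligonucleotides in their names, and the probe set at 1.57 does not.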

How the results depend on the processing

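No paired analysis was possible because each graft type has 1 array, and for the same reason no array could be left out. A median is said to have moved where it changed by more than 0.1. Quantile normalization gave medians of -0.0608 for all members, -0.0801 for complex I, -0.14 for complex II, -0.23 for complex III, -0.0428 for complex IV and 0.0505 for complex V. With the lowess trend removed (span 0.4) they were -0.0211 for all members, -0.0334 for complex I, -0.17 for complex III, -0.0237 for complex IV and 0.0941 for complex V. With the floor at the 75th percentile complex IV stood at 0.25, since dim members then leave the list. The count of genes at least 2-fold higher was 1 in place of 0 after either centring (on the above-floor median or on the 75th percentile), with the dimmest probe set of each gene, and with only probe sets without a mark for shared oligonucleotides. At 1.5-fold it was 2 higher and 1 lower. The cause of these changes was not tested, except where named. Complex V had the highest median under all 5 scalings, and no scaling moved the median of all named genes by more than 0.1. Citrate cycle genes, electron carriers, regulators and osteoclast genes, whose medians lay within 0.11 of 0, changed sign of the median in at least 1 scaling. Of the 43 members named by the rule, 9 changed side of 0 after quantile normalization, 9 with the trend removed and 5 after each centring. With the dimmest probe set 9 of 39 did. No value without a floor is given for the number of genes above it.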
